A study of Mus musculus with 6 samples.

Results

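Stathmins and a set of neural genes were followed in cultured mouse primordial germ cells that carried a knockdown of the germ cell RNA-binding protein Dazl. The set holds 9 genes of 20234 measured: the 4 stathmins Stmn1, Stmn2, Stmn3 and Stmn4, the adaptor gene Dab1, and the transcription factor genes Sox1, Gbx2, Msx1 and Pax6. They were found by gene name among the array's probes, which gave 18 of 41174 probes. Of these, 15 were well above background on at least 2 arrays and 13 on all 6. The genes had been picked because of how they differed between knockdown and control, so that difference is described for them and not tested. The time of differentiation, the hairpin and the change of the knockdown difference with time were not the contrast of that choice and were tested. A choice that favours a like difference with both hairpins and on both days may still favour small values in the last 2 of these.

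The cells were derived from male Oct4-GFP embryonic stem cells of a mixed C57BL/6 129SV background, in which GFP reports the pluripotency and germ cell gene Oct4 (Pou5f1). Every line carried a vector with a tdTomato marker, which held either 1 of 2 short hairpins against Dazl or a control hairpin. After feeder cells were depleted, the cells differentiated for 9 or 12 days, and cells positive for both colours were sorted. For each day there was 1 array of hairpin 2, 1 of hairpin 1 and 1 of the control, so that 4 knockdown arrays stand against 2 control arrays. Both control arrays carry the same vector, so a trait of the control line and the knockdown cannot be told apart. The knockdown fit takes the arrays as separate samples, although each vector was measured on both days. The labels do not state that samples came from separate cultures, and p-values therefore measure only the spread between these samples, which may be technical.

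Each array held 1 sample, and signals are given as log2 values relative to the 75th percentile of the array's own signals. That percentile lay between 629 and 747 units, and 70.3% to 73.3% of the probes were well above background. Both Dazl probes kept 2.99% to 8.26% of the control signal of the same day on the 4 knockdown arrays. All 10 germ cell markers measured, among them Pou5f1, Nanog, Dppa3 and Ddx4, were well above background on all 6 arrays. Without Dazl, which is among the 10, the summed level of the other 9 was 59.4 to 72.0 times the 75th percentile on knockdown arrays and 58.6 to 63.4 times on control arrays. The sum hides a split: of the 10, 3 were higher and 7 lower in the knockdown. Pou5f1 (log2 difference 0.69, SE 0.15) and Nanog (0.37, SE 0.30) were higher in all 4 pairs. Dppa3 (-0.62, SE 0.28), Prdm1 (-0.26, SE 0.20) and Dazl were lower in all 4. Endoderm markers summed to 2.15 to 3.41 on knockdown arrays and 1.48 to 1.81 on control arrays, with 9 of 10 well above background on every array and the plasma protein gene Ttr on none. Of the 9 endoderm markers measured, 8 were higher and 1 lower in the knockdown, and 5 were higher in all 4 pairs. Amn was the lower one (-0.20, SE 0.23), and Hnf4a hardly differed (0.02, SE 0.18). The largest rise was that of Afp, which encodes alpha-fetoprotein and was higher by 2.26 on the log2 scale (SE 0.24, limma adjusted p = 0.152). The apolipoprotein gene Apoa1 was higher by 2.14 (SE 0.60, limma adjusted p = 0.367), and both were higher in all 4 pairs. With the vector as a block across the days, the limma adjusted p was 0.0493 for Afp and 0.0427 for Apoa1. The block takes the days of a vector as replicates and leaves the spread between the hairpins out of the error. Its values therefore speak only of these vectors. The hairpins differed by 1.61 for Apoa1, and its SE with the block was 0.18. Fibroblast markers summed to 23.9 to 36.1 on knockdown arrays and 23.4 to 28.7 on control arrays, with 8 of 10 well above background on every array. The part of these cells in the differences given here was not tested. In sorted bulk cells, fewer cells of a type and less RNA per cell cannot be told apart.

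Stathmins are small proteins that bind tubulin dimers and favour the shortening of microtubules, and kinases switch this activity off. Stmn1 is made in many dividing cells, while Stmn2, Stmn3 and Stmn4 are known mainly from neurons, where lipid anchors hold them at Golgi and vesicle membranes of growing processes. Dab1 is the adaptor that binds the reelin receptors and is phosphorylated when reelin reaches a migrating neuron. Sox1, Gbx2, Msx1 and Pax6 are transcription factors that pattern the neural plate and its borders, and several of them also act in other embryonic tissues.

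In the knockdown arrays the neuronal stathmins differed in direction: Stmn2 and Stmn3 were higher than in the control of the same day in all 4 pairs, Stmn4 was lower in all 4, and Stmn1 went both ways. Of the 9 genes, 4 were higher in all 4 pairs, namely Stmn2, Stmn3, Dab1 and Msx1, where 16.2% of all genes measured were. Only Stmn4 was lower in all 4, where 17.2% of all genes were. Stmn2 and Dab1 were at least 2-fold higher in every pair, a mark that 0.128% of all genes (26 genes) reached. Since the genes were picked on this contrast, nothing is read from these shares. Where knockdown and control arrays are said below not to overlap, this is likewise only a description. The share of all genes without such overlap was not counted.

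Stmn2 (probe A_51_P164998, NM_025285, chromosome 3), which encodes a stathmin of growing axons, had the largest difference of the set. Its log2 signal at day 12 was 0.63 with hairpin 2 and 0.70 with hairpin 1, against -0.86 in the control. The day 9 signal was 1.11 with hairpin 2 and 0.92 with hairpin 1, against -0.67 in the control. All 4 knockdown arrays lay above both control arrays, and the folds over the control of the same day were 2.80 and 2.93 at day 12 and 3.42 and 3.0 at day 9, in the same order of hairpins. The knockdown arrays averaged 0.84 ± 0.22 (SD, n = 4) and the controls -0.76 ± 0.13 (SD, n = 2), and the fitted log2 difference was 1.60 (SE 0.14, 3.03-fold), which 26 of the other measured genes exceeded. The difference ran from 1.52 to 1.68 with 1 array left out, and these ends are only the differences of day 12 and day 9 on their own. With normexp background correction the difference of this probe was 1.45 (SE 0.093). The other Stmn2 probe, A_52_P641991, was matched to a cDNA clone (AK043202) and was not well above background on any array, with signals of 1.33 to 5.95 units, so it gives no fold.

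Stmn3 (A_51_P140690, NM_009133, chromosome 2), a close relative of Stmn2, was also higher on the knockdown arrays, with smaller folds. Its log2 signal at day 12 was -0.41 with hairpin 2 and -0.23 with hairpin 1, against -1.64 in the control. The day 9 signal was -0.44 with hairpin 2 and -0.25 with hairpin 1, against -1.44 in the control. Knockdown and control arrays did not overlap, with folds over the control of 2.35 for hairpin 2 and 2.66 for hairpin 1 at day 12, while the day 9 folds were 1.99 and 2.29. The knockdown arrays averaged -0.33 ± 0.11 (SD, n = 4) and the controls -1.54 ± 0.15 (SD, n = 2), a log2 difference of 1.21 (SE 0.15, 2.31-fold). With normexp background correction the Stmn3 difference was 0.94 (SE 0.098).

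Stmn4 (A_51_P194249, NM_019675, chromosome 14), the remaining stathmin known from neurons, stood on the other side. Its log2 signal at day 12 was -3.25 with hairpin 2 and -3.39 with hairpin 1, against -2.81 in the control, and at day 9 it was -3.45 with hairpin 2 and -3.54 with hairpin 1, against -2.93 in the control. All 4 knockdown arrays lay below both control arrays, with means of -3.41 ± 0.12 (SD, n = 4) for the knockdown and -2.87 ± 0.09 (SD, n = 2) for the controls. The log2 difference was -0.54 (SE 0.13), and -0.27 (SE 0.06) with normexp background correction, which draws dim probes together. Its probe was dim, with 56.5 to 68.5 units on knockdown arrays and 82.4 to 100 units on control arrays.

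Stmn1 (chromosome 4), the stathmin of dividing cells, had a strong signal on every array and no common direction over the 4 pairs. Probe A_51_P495641 (NM_019641) had log2 signals at day 12 of 6.21 with hairpin 2 and 5.67 with hairpin 1, against 6.14 in the control. At day 9 it had 6.22 with hairpin 2 and 5.89 with hairpin 1, against 6.15 in the control. Hairpin 2 thus lay just above the control and hairpin 1 below it on both days. Probe A_52_P319161 of the same transcript showed the same order, with differences from the control of 0.19 for hairpin 2 and -0.41 for hairpin 1 at day 12, while the day 9 values were 0.51 and -0.35. Over both hairpins the log2 difference of the brighter probe was -0.15 (SE 0.20).

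**Figure D1:**
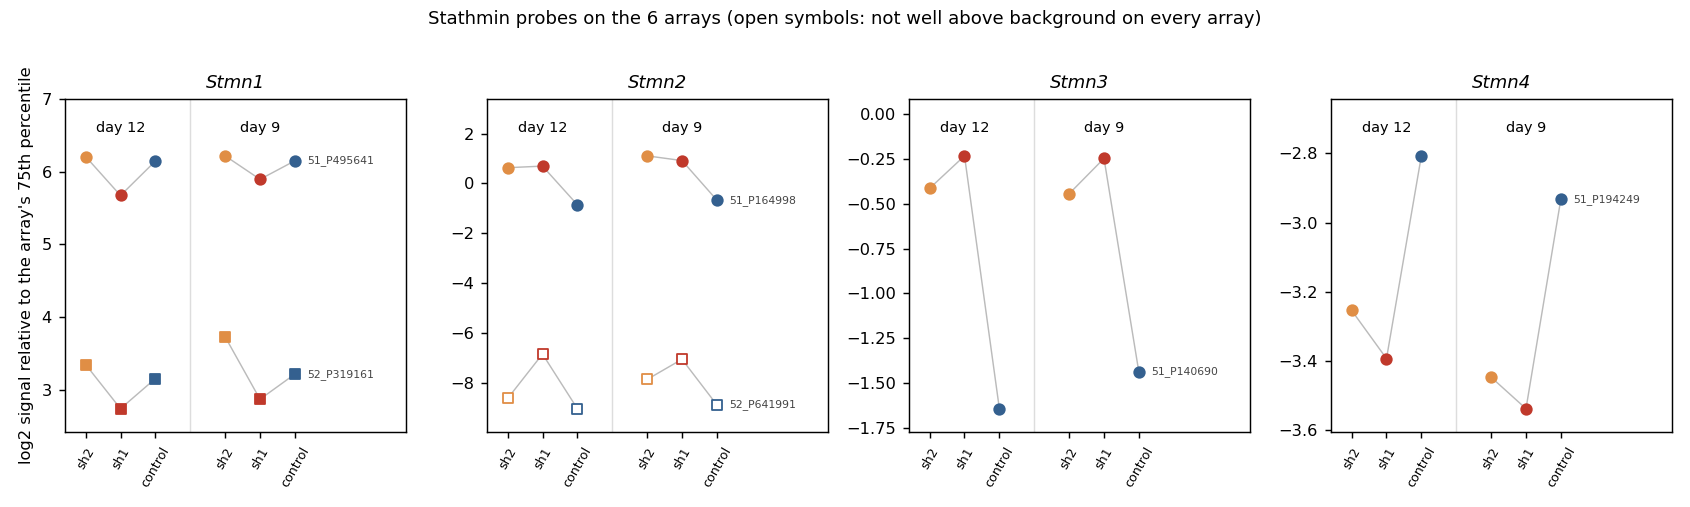
Log2 signal of every stathmin probe relative to the 75th percentile of its array (vertical axes, with a scale of their own in each panel), for hairpin 2, hairpin 1 and the control at day 12 and at day 9 (horizontal axes). Each point is 1 array, grey lines join the arrays of a day, and open symbols mark the Stmn2 probe that was not above background. Stmn2 and Stmn3 sit higher on the 4 knockdown arrays than on the controls, Stmn4 sits lower, and Stmn1 is split by hairpin.

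Among the genes that stathmins act on or are regulated by, no gene passed the test between knockdown and control. The list held 25 tubulin and kinase genes, all measured, and 0 rose and 0 fell, where 0% of the 20234 genes measured passed (limma, threshold of 0.05 on the adjusted p; without adjustment 2012 genes were under 0.05). With the vector as a block across the days, 20 of all genes passed. Of the 25 genes, 2 were under 0.05 without adjustment. In all, 9 had a positive and 16 a negative difference, with a median log2 difference of -0.03 beside 0.00 over all genes. Mapk10, the neuronal Jun kinase, had the largest value (-1.19, SE 0.36, adjusted p = 0.390), and its control signal was -3.03 at day 12 and -5.0 at day 9. Its probe was dim and well above background on 3 of 4 knockdown arrays, and with normexp background correction the difference of Mapk10 was -0.30 (SE 0.10). Uhmk1, a kinase that phosphorylates stathmin, had -0.39 (SE 0.16, adjusted p = 0.495), and the alpha-tubulin gene Tuba1a -0.36 (SE 0.16, adjusted p = 0.526). These 3 genes were below the control of the same day in all 4 pairs.

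The genes of the neuronal cytoskeleton and of axon growth were split as well. Of 24 genes in the list 22 were measured, and 0 passed in either direction (limma; 5 without adjustment). The counts were 12 higher and 10 lower, with a median of 0.01. The kinesin motor gene Kif1a averaged -1.03 (SE 0.21, adjusted p = 0.260), and its 4 pairs were all lower. Another kinesin gene, Kif5a, had 0.66 (SE 0.15, adjusted p = 0.292), and Fez1, which encodes an adaptor of axonal transport, had 0.67 (SE 0.14, adjusted p = 0.271), both higher in all 4 pairs. Gap43, which encodes a protein of growth cones, was not well above background on any array. Summed over the list, the level was 33.7 to 39.8 times the 75th percentile on knockdown arrays and 29.6 to 34.6 times on control arrays, and these ranges overlap.

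The promoter of Stmn3 is shown because Stmn3 and Dab1 moved together across the arrays. Promoters were taken from RefSeq on GRCm38.p6, as 250 bases before to 50 after a gene start, and 6 of the 9 genes had an entry, with 8 promoters. They were searched on both strands for 10 motifs. These were the E-box CAGCTG, the E-box variants written as CAGATG and as CATATG, the Myc-type E-box CACGTG, the homeodomain core TAATTA, the SOX factor core ACAAAG, the cAMP response element TGACGTCA, the TATA box TATAAA, the left part of the REST site TTCAGCACC, and the right part of the REST site GGACAGCG. Capitals mark the matches, which in the promoters printed here do not overlap. The Stmn3 promoter (chr2:181314451-181314750, minus strand) reads:
Stmn3: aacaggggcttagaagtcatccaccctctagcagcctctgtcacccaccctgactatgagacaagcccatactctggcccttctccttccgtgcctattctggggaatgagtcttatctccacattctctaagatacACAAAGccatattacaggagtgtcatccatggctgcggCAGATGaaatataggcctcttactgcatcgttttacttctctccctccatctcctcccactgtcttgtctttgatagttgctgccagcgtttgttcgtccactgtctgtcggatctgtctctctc
It held ACAAAG, which 18.7% of 32851 mouse promoters hold, and CAGATG, which 17.2% hold. Neither part of the REST site was found in these letters, and 0.371% of all promoters hold the left and 1.26% the right part. It had 6 CpG pairs where the median promoter has 7.

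Dab1 (chromosome 4) was higher in the knockdown on the probes of 1 transcript and less clearly on those of another. The brightest probe, A_51_P437135 (NM_010014), had a log2 signal at day 12 of -0.43 with hairpin 2 and -0.57 with hairpin 1, against -1.58 in the control. The day 9 values were -0.52 with hairpin 2 and -0.69 with hairpin 1, against -1.70 in the control. Knockdown and control arrays did not overlap, and the folds over the control were 2.21 for hairpin 2 and 2.01 for hairpin 1 at day 12, while the day 9 folds were 2.27 and 2.03. Knockdown arrays averaged -0.55 ± 0.10 (SD, n = 4) and controls -1.64 ± 0.09 (SD, n = 2), and the log2 difference was 1.09 (SE 0.14, 2.13-fold). With normexp the Dab1 difference was 0.90 (SE 0.075).

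The other probe of NM_010014, A_52_P354286, gave a log2 difference of 0.89 (SE 0.15), with folds of 1.96 and 1.71 at day 12 and 1.99 and 1.79 at day 9. Probe A_52_P392216, annotated to NM_177259, was dim and gave 0.36 (SE 0.25), with a fold of 1.79 for hairpin 1 at day 9 and of 1.03 to 1.30 in the other 3 pairs. Probe A_52_P458620 of the same transcript was well above background on 3 of 6 arrays and changed sign with the day: it differed from the control by -1.05 (hairpin 2) and -0.99 (hairpin 1) at day 12, but by 1.56 and 0.82 at day 9. The 4 Dab1 probes therefore disagree, and the mean over all 4 gave a log2 difference of 0.61 (SE 0.18) in place of 1.09.

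Dab1 has 2 promoters in the table, and both are shown since the probes of its transcripts differed. The first (chr4:104367288-104367587, plus strand) and the second (chr4:103619250-103619549, plus strand) read:
Dab1 first promoter: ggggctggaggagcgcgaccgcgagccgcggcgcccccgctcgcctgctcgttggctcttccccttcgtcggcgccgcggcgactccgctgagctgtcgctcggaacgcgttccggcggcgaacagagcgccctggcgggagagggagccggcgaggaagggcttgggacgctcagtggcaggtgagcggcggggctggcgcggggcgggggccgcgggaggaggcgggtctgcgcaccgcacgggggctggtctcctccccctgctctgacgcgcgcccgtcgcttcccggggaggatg
Dab1 second promoter: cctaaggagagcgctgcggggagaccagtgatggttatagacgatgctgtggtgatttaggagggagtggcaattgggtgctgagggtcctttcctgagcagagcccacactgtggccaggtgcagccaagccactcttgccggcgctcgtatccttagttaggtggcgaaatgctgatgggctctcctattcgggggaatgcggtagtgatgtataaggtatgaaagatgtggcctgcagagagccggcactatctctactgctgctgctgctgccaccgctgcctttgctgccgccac
None of the 10 motifs was found in either. The first had 46 CpG pairs and a GC content of 77.3%, and the second 12 and 57.3%, beside medians of 7 and 52.7% over all promoters. Which promoter gives which transcript was not analysed here.

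The genes around Dab1 in reelin signalling showed no change that passed the test. All 20 were measured and well above background on all 6 arrays, and 0 rose and 0 fell (limma; also 0 without adjustment), with 9 higher, 11 lower and a median of -0.04. The ligand gene Reln had -0.10 on the log2 scale (SE 0.24, adjusted p = 0.934). Its receptor gene Vldlr had 0.20 (SE 0.32, adjusted p = 0.894), below and above the control in different pairs. Of the Src family kinases that phosphorylate Dab1, Src had 0.33 (SE 0.14, adjusted p = 0.513) and was higher in all 4 pairs, while Yes1 had -0.52 (SE 0.40, adjusted p = 0.712). Yes1 stood at -2.03 with hairpin 2 at day 9, where the other 5 arrays lay between -0.77 and -0.43, and the Yes1 difference was -0.18 without that array, -0.93 without the day 12 control and -0.12 without the day 9 control. Nck2, an adaptor that binds phosphorylated Dab1, had -0.32 (SE 0.25, adjusted p = 0.719).

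The 4 transcription factors did not form a group in the knockdown contrast. Msx1 was higher in all 4 pairs, Sox1 in both pairs of day 9, Gbx2 in 3 pairs and mainly with hairpin 1, and Pax6 in 1 pair.

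Msx1 (A_52_P561671, NM_010835, chromosome 5), a homeobox factor of the roof plate, the neural crest and limb mesenchyme, had a log2 signal at day 12 of -2.62 with hairpin 2 and -2.60 with hairpin 1, against -3.11 in the control. The day 9 values were -1.89 with hairpin 2 and -2.38 with hairpin 1, against -2.86 in the control. The knockdown arrays lay above both controls, with means of -2.37 ± 0.34 (SD, n = 4) for the knockdown and -2.98 ± 0.18 (SD, n = 2) for the controls, and the log2 difference was 0.61 (SE 0.18, 1.53-fold), or 0.39 (SE 0.11) with normexp. The other Msx1 probe, A_51_P218196, was printed in 10 spots and none was well above background on any array, with at most 2.47 units a spot.

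Sox1 (A_51_P176337, NM_009233, chromosome 8), among the first factors of the neural plate, had a log2 signal at day 12 of -4.63 with hairpin 2 and -4.86 with hairpin 1, against -4.61 in the control. At day 9 it had -4.27 with hairpin 2 and -4.43 with hairpin 1, against -5.54 in the control. The day 9 control stood below the other 5 arrays, which overlapped. The fitted knockdown difference was -0.13 (SE 0.24) at day 12 and 1.19 (SE 0.24) at day 9. Pooled over the days it was 0.53 (SE 0.31), -0.13 without the day 9 control and 1.19 without the day 12 control. The probe was dim throughout, with 23.5 to 38.7 units on knockdown arrays and 28.6 and 13.5 units on the controls of day 12 and day 9. Of the 789 genes measured on chromosome 8, 35.7% were lower in the knockdown (median 0.06).

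Gbx2 (A_51_P179578, NM_010262, chromosome 1), a homeobox factor of the anterior hindbrain that is also active in pluripotent cells, followed the hairpin. At day 12 its log2 signal was -2.22 with hairpin 2 and -1.31 with hairpin 1, against -2.07 in the control. At day 9 it was -2.52 with hairpin 2 and -1.49 with hairpin 1, against -2.56 in the control. Hairpin 1 lay 0.76 and 1.06 above the control, while hairpin 2 lay at -0.15 and 0.03, and the pooled log2 difference was 0.43 (SE 0.37). The other probe, A_52_P376318 (AK051578), was well above background on 1 array only, that of hairpin 1 at day 12. Of the 840 genes measured on chromosome 1, 72.6% were lower in the knockdown (median -0.18), and the part of this shift in the values of Gbx2 was not tested.

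Pax6 (chromosome 2), a paired-box factor of the eye and of forebrain progenitors, had probes that agreed at day 12 more than at day 9. Probe A_51_P489935 (BC036957) had log2 signals at day 12 of -2.78 with hairpin 2 and -1.89 with hairpin 1, against -2.24 in the control, and at day 9 of -2.92 with hairpin 2 and -2.28 with hairpin 1, against -2.26 in the control. Probe A_52_P565559 (NM_013627) is printed in 10 spots, whose log2 values on 1 array had an SD of 0.05 to 0.08. It differed from the control by -0.48 (hairpin 2) and 0.27 (hairpin 1) at day 12, and by -0.05 and 0.00 at day 9. The third probe, A_52_P469306, was well above background on 2 arrays. The pooled log2 difference of the brightest probe was -0.21 (SE 0.31).

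**Figure D2:**
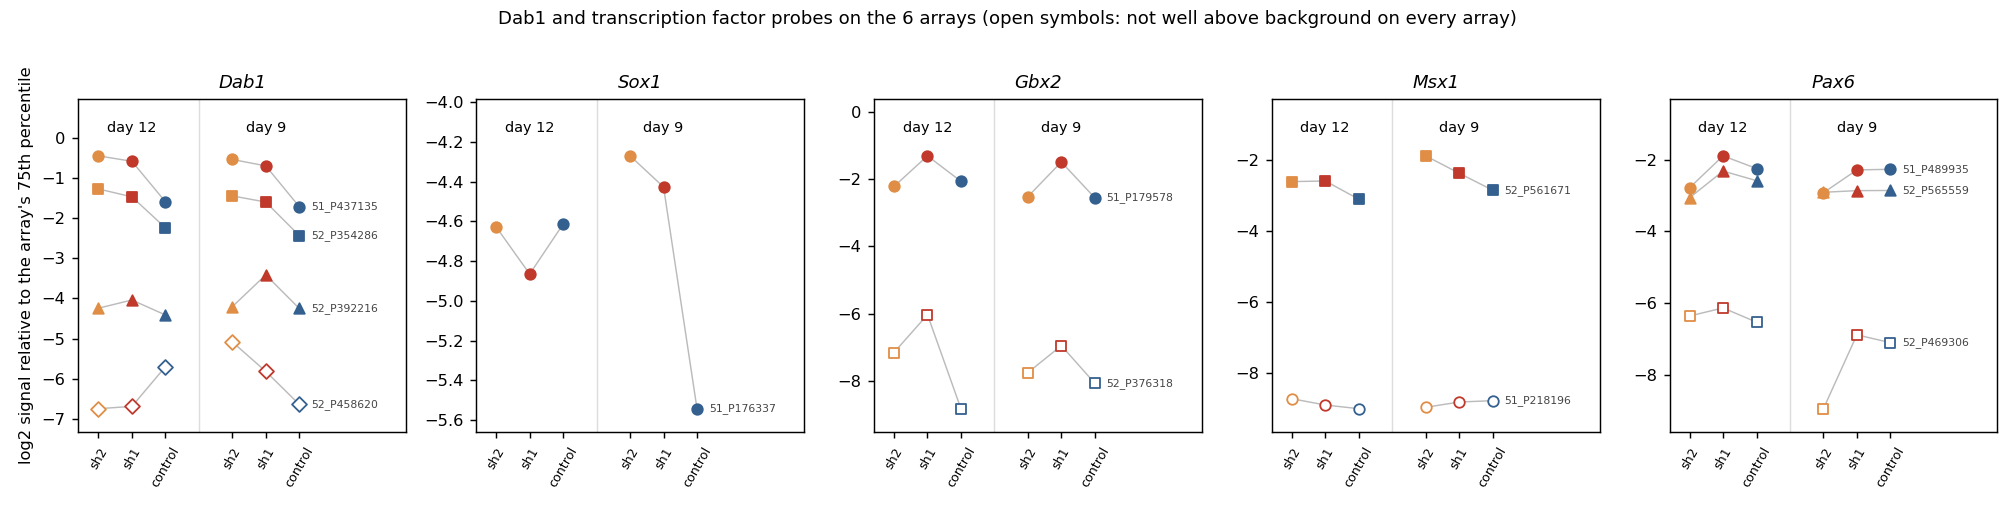
Log2 signal of every probe of Dab1, Sox1, Gbx2, Msx1 and Pax6 relative to the 75th percentile of its array (vertical axes, with a scale of their own in each panel), for hairpin 2, hairpin 1 and the control at day 12 and at day 9. Each point is 1 array, grey lines join the arrays of a day, and open symbols mark probes that were not well above background on all 6 arrays. The upper pair of Dab1 probes is higher on all 4 knockdown arrays, the day 9 control of Sox1 stands below the other 5 arrays, and hairpin 1 of Gbx2 stands above hairpin 2 on both days.

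The difference between the hairpins was tested, since it was not the contrast on which the genes were picked. Both hairpins target Dazl, and the comparison takes in how far each lowers it as well as what else sets them apart. Dazl probe A_52_P271166 kept 4.66% of the control signal with hairpin 2 and 3.54% with hairpin 1 at day 12. Its day 9 values were 8.26% and 4.84%. The other Dazl probe had the reverse order, with 2.99% and 3.71% at day 12 and 4.19% and 4.46% at day 9. The part of the Dazl level in the hairpin differences was not tested. None of the 9 genes passed (limma, smallest adjusted p = 0.136; 3 of them were under 0.05 without adjustment), where 0.00988% of all genes (2 genes) did and 2343 were under 0.05 without adjustment. Gbx2 was lower with hairpin 2 than with hairpin 1 on both days (-0.91 at day 12 and -1.03 at day 9), with a fitted log2 difference of -0.97 (SE 0.17, 1.96-fold lower, limma adjusted p = 0.136). With 1 array left out, the hairpin difference of Gbx2 ran from -1.08 to -0.86.

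Pax6 was also lower with hairpin 2 on its brightest probe (-0.89 at day 12 and -0.64 at day 9), with a log2 difference of -0.76 (SE 0.18, limma adjusted p = 0.203). Its multi-spot probe gave -0.40 (SE 0.22), with -0.75 at day 12 but only -0.05 at day 9. Stmn1 was higher with hairpin 2, by 0.53 at day 12 and 0.32 at day 9, with a log2 difference of 0.43 (SE 0.16, limma adjusted p = 0.416), and its other probe gave 0.73 (SE 0.18). The neuronal stathmins and Dab1 differed little between the hairpins: Stmn2 by 0.06 (SE 0.17), Stmn3 by -0.19 (SE 0.17), Stmn4 by 0.12 (SE 0.16) and Dab1 by 0.15 (SE 0.16). A p that misses the threshold does not show that the hairpins act alike, and the choice of genes may have favoured small values here. Over both days, 4 of the 9 genes were higher with hairpin 2 (Stmn1, Stmn4, Dab1 and Sox1), where 31.8% of all genes were, and 3 were lower (Stmn3, Gbx2 and Pax6), where 27% of all genes were.

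The promoters of Gbx2 and Pax6 are shown because the brightest probes of these genes shared the order of the hairpins. That of Gbx2 (chr1:89931127-89931426, minus strand) and the first of 2 for Pax6 (chr2:105668646-105668945, plus strand) read:
Gbx2: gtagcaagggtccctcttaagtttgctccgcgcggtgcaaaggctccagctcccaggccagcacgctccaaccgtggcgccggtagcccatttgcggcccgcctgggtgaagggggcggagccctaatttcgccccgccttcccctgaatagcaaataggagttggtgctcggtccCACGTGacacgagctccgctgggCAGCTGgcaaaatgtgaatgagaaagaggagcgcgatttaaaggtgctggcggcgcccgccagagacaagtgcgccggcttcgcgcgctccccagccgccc
Pax6 first promoter: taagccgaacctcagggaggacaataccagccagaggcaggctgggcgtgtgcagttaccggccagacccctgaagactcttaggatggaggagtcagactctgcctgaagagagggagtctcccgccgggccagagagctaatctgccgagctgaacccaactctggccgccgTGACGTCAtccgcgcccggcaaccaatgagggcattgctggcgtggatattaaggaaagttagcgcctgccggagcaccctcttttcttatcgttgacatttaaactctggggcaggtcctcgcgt
Gbx2 held CACGTG, which 7.15% of all promoters hold, and CAGCTG, which 16.3% hold. The first Pax6 promoter held the cAMP response element TGACGTCA, which 1.79% of all promoters hold. No motif was shared between them.

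Day 12 against day 9 gave no call among the 9 genes (limma, adjusted p of 0.436 to 0.963; 0 of them were under 0.05 without adjustment), where 0.148% of all genes (30 genes) passed. With the vector as a block 321 of all genes passed, and again none of the 9. The largest differences were those of Msx1 (-0.40, SE 0.17), Gbx2 (0.32, SE 0.35) and Stmn2 (-0.30, SE 0.13). Stmn2 was lower at day 12 with every vector, and its differences were -0.48 with hairpin 2, -0.22 with hairpin 1 and -0.19 in the control. Stmn4, Dab1, Gbx2 and Pax6 were higher at day 12 with all 3 vectors, where 20.6% of all genes were, and Stmn1, Stmn2 and Msx1 were lower with all 3, where 19.6% were. All 3 arrays of a day were on the same slide, so the day and the slide cannot be told apart.

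The change of the knockdown difference between the days was called for none of the 9 genes (limma; only Sox1 was under 0.05 without adjustment), where 0% of all genes passed and 353 were under 0.05 without adjustment. With the vector as a block 52 of all genes passed and none of the 9. For Stmn2 the knockdown difference was 1.52 at day 12 and 1.68 at day 9, for Stmn3 1.32 and 1.09, for Dab1 1.08 and 1.10, and for Stmn4 -0.52 and -0.56. The change was -0.16 (SE 0.33) for Stmn2 and 0.23 (SE 0.34) for Stmn3. It was largest for Sox1, at -1.33 (SE 0.34, limma adjusted p = 0.9997). With normexp the Sox1 change was -0.19 (SE 0.13).

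**Figure D3:**
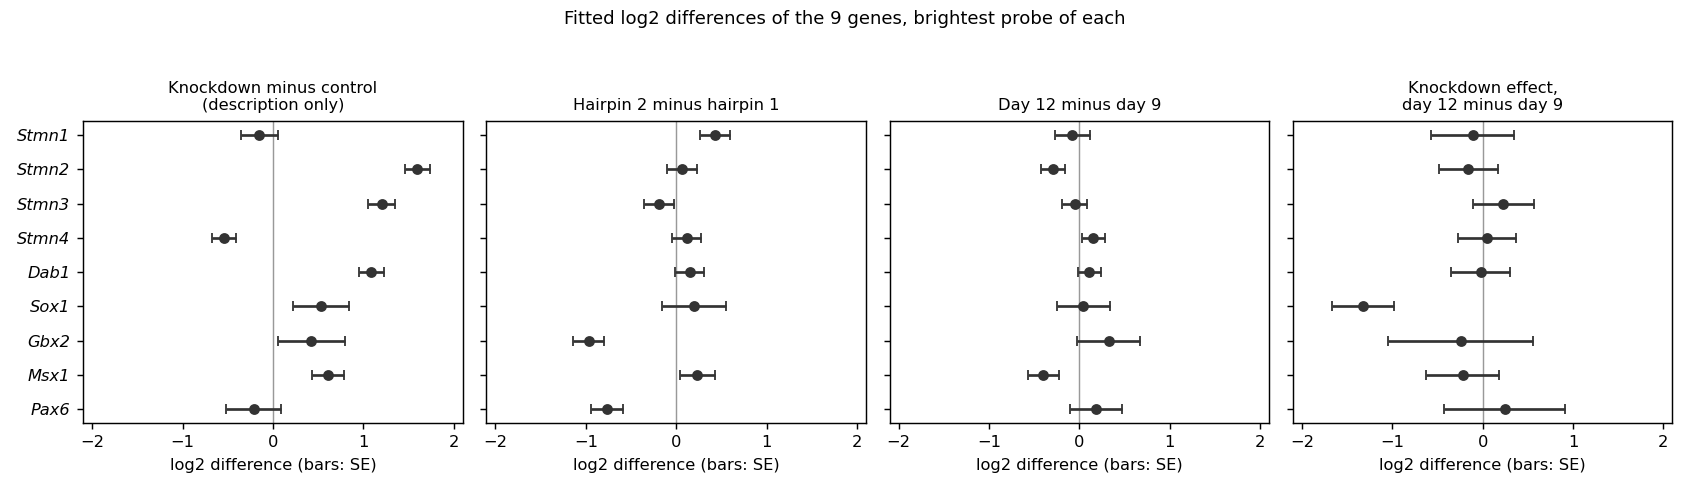
Fitted log2 differences of the 9 genes (points) with their standard errors (bars) in 4 contrasts: knockdown minus control, hairpin 2 minus hairpin 1, day 12 minus day 9, and the knockdown difference at day 12 minus that at day 9. Stmn2, Stmn3 and Dab1 stand at 1.60, 1.21 and 1.09 in the first panel and between -0.30 and 0.23 in the others, Gbx2 and Pax6 stand lowest in the hairpin panel, and Sox1 stands at -1.33 in the last.

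Other genes of neural development were counted for comparison, and none of these lists held a gene that passed in any of the 4 contrasts (limma). With the vector as a block, Mapk10 alone of the 7 pathway lists passed, higher at day 12 than at day 9 by 1.94 (SE 0.23, limma adjusted p = 0.0257). Of the glial and fibroblast markers, the block called the glutamate transporter gene Slc1a3 lower at day 12 (-1.01, SE 0.14, limma adjusted p = 0.0368) and the matrix gene Lum higher (2.80, SE 0.20, limma adjusted p = 0.0115). Of 30 neural plate and progenitor factors 26 were measured, with 18 higher and 8 lower in the knockdown, a median of 0.05 and 2 genes under 0.05 without adjustment. Sox21, a relative of Sox1, had 0.74 (SE 0.53, adjusted p = 0.694) and followed the hairpin: it lay at -2.0 with hairpin 2 and -0.64 with hairpin 1 at day 12, against -2.0 in the control, and at -2.29 and -0.77 at day 9, against -2.32 in the control. The epiblast growth factor gene Fgf5 had 0.73 (SE 0.26, adjusted p = 0.448) and Gbx1, the paralogue of Gbx2, 0.38 (SE 0.14, adjusted p = 0.457), both higher in all 4 pairs.

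Of 25 genes of neurogenesis and of the synapse 20 were measured, with 15 higher, 5 lower, a median of 0.11 and 2 genes under 0.05 without adjustment. The list's summed level was 17.1 to 20.8 on knockdown arrays and 16.4 to 19.4 on control arrays, and the defining genes Neurod1, Neurod4 and Scg2 were not well above background on any array. Myt1, a zinc finger factor of new neurons, was well above background on 2 of 4 knockdown arrays and on no control array, so no fold is given (adjusted p = 0.437). Elavl3, which encodes a neuronal RNA-binding protein, had 0.68 (SE 0.42, adjusted p = 0.651) and was higher in 3 of 4 pairs. The Elavl3 difference was 0.098 without the day 12 control and 1.26 without the day 9 control. Neurog3, a proneural factor also known from endocrine pancreas and spermatogonia, had -0.59 (SE 0.20, adjusted p = 0.437) and was lower in all 4.

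REST is the repressor that keeps neuronal genes, Stmn2 among them, silent outside neurons. Of 17 genes of its complex, all measured, 3 were higher and 14 lower, with a median of -0.10, and 0 passed (limma; also 0 without adjustment). Rest itself had -0.11 (SE 0.24, adjusted p = 0.929). It lay at 3.47 with hairpin 2 and 3.34 with hairpin 1 at day 12, against 3.39 in the control, and at 2.69 and 3.48 at day 9, against 3.32 in the control. The corepressor gene Sin3a had -0.30 (SE 0.14, adjusted p = 0.543), lower in all 4 pairs, and Phf21a, a reader of unmethylated histone H3, had 0.28 (SE 0.18, adjusted p = 0.668), higher in all 4. Hdac2, a histone deacetylase gene, had -0.36 (SE 0.39, adjusted p = 0.804), and hairpin 2 at day 9 stood apart at -2.58 beside -1.24 to -1.0 on the other 5 arrays. The Hdac2 difference was -0.03 without that array, -0.72 without the day 12 control and -0.01 without the day 9 control.

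Of 17 genes of the neural crest and roof plate, where Msx1 is also known, 16 were measured, with 10 higher and 6 lower, a median of 0.15 and 4 genes under 0.05 without adjustment. Ngfr, the neurotrophin receptor p75, had 1.15 (SE 0.24, adjusted p = 0.268): it lay at 1.92 with hairpin 2 and 2.51 with hairpin 1 at day 12, against 1.0 in the control, and at 2.15 and 2.72 at day 9, against 1.35 in the control. Sox9, a factor of neural crest, cartilage and gonad, had -1.11 (SE 0.19, adjusted p = 0.203), with all 4 knockdown arrays between -4.02 and -3.47 and the controls at -2.61 and -2.58. Foxd3, a factor of neural crest and pluripotent cells, had 0.65 (SE 0.20, adjusted p = 0.409). The 8 glial markers measured had 6 higher and 2 lower, and summed to 6.18 to 8.16 on knockdown arrays and 6.60 to 8.61 on control arrays.

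**Figure D4:**
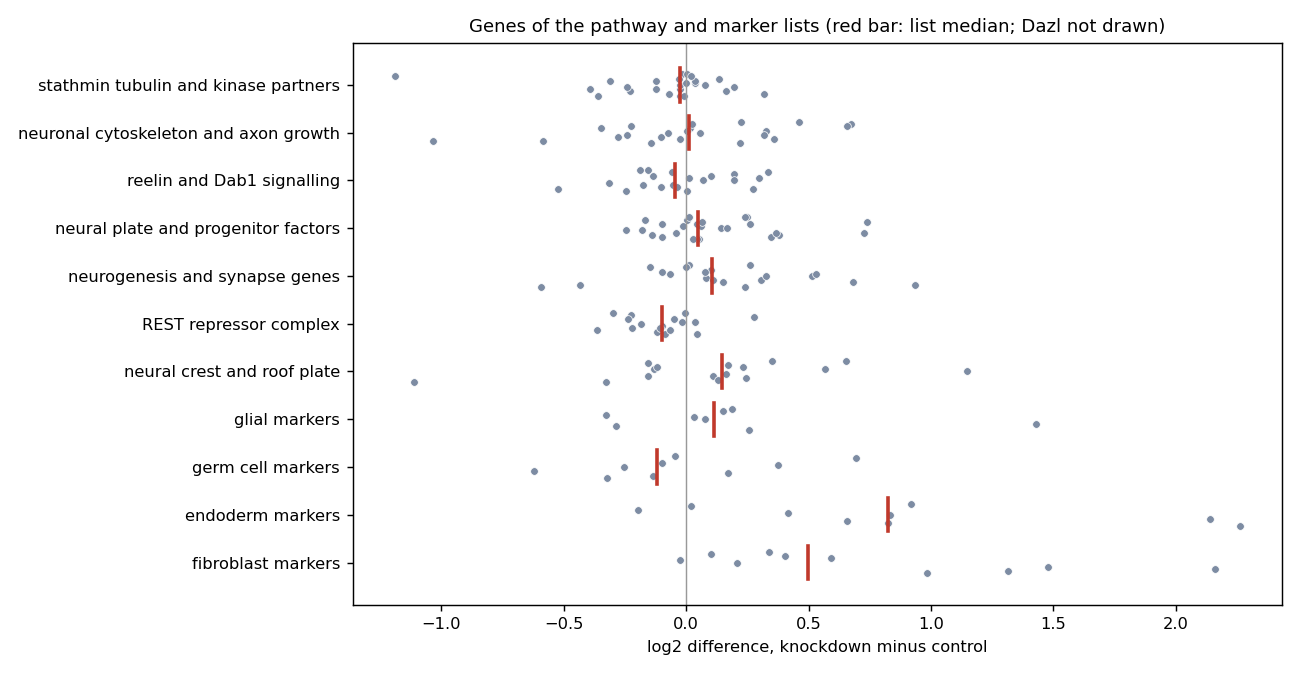
Log2 difference between knockdown and control (horizontal axis) of each measured gene in the 7 pathway lists and 4 marker lists (rows). Each point is 1 gene, red bars mark the list medians, and Dazl is not drawn. The medians of the pathway lists lie between -0.10 and 0.15, and those of the endoderm and fibroblast markers at 0.82 and 0.50.

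The genes whose course over the 6 arrays was most like that of a stathmin or of Dab1 were found by Pearson's r among 15040 genes well above background on every array. The 6 arrays share 3 vectors and 2 slides, so r is a description. For Stmn2 they were Gngt2 (r = 0.999), Ccdc102a (0.994) and Abi3 (0.991), and Gngt2 had a knockdown difference of 1.53 beside the 1.60 of Stmn2. For Stmn3 they were Ppm1e (0.998), Rpl22l1 (0.992) and Aldh1a3 (0.991), for Dab1 Lins1 (0.995), Higd2a (0.989) and Cachd1 (0.989), and for Stmn4 Klf9 (0.999), Zcchc4 (0.994) and Thap4 (0.994). For Stmn1 they were Mtg1 (0.995), Lsm14b (0.994) and Serpinb3c (0.988).

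Such high values were common with so few arrays: 268 genes had r above 0.9 with Stmn2, 294 with Stmn3, 222 with Dab1, 250 with Stmn4 and 104 with Stmn1. Within the set, Stmn2 had r of 0.96 with Stmn3, 0.95 with Dab1 and -0.97 with Stmn4, while Stmn1 had r of -0.92 with Gbx2 and -0.79 with Pax6. The first 3 values come from genes chosen on the knockdown contrast.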

How the data were processed

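Per the file headers, the deposited intensity values were made with Agilent Feature Extraction 9.1.3.1, with spatial detrending, background subtraction and surrogate values for dim spots, and with no normalization between arrays. The authors' deposited processed table held a ratio of background-subtracted signal to the array's median, and it served as an alternative. A quality score in the deposited files, whose making is not given in the sources used here, served only to match that table's entries to spots.

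Intensities were taken to log2, the 75th percentile of every array was subtracted, and spots of 1 probe were averaged. Probes well above background on at least 2 arrays were kept (30214 probes), and the brightest stood for its gene. Gene names came from accessions (22951 probes), symbols or synonyms (9755) or the array's annotation alone (8468), with RefSeq on GRCm38.p6. Models were fitted over 20234 genes with limma 3.58.1 in R 4.3.3, two-sided, with Benjamini-Hochberg adjustment, and were tested on simulated data. Knockdown against control and day 12 against day 9 came from a fit of both terms, the hairpins from a fit of day and vector, and the change between days from a fit of 4 groups, which assumes that a lone control array varies like the hairpin pairs. Either slide had the control at position 2, hairpin 1 at 3 and hairpin 2 at 4, so the position and the vector cannot be told apart.

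Deviations from the day's mean correlated across genes at r = 0.37, 0.53 and 0.25 for arrays of the same vector, and at -0.33 to -0.02 for different vectors. Subtracting the day's mean in part forces negative values between different vectors. The arrays thus pair by vector or by position on the slide, which cannot be told apart.

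The members, gene lists and tests were chosen with earlier results of these data known. The text names every member, up to 3 genes of largest knockdown difference in each pathway list, and the 3 genes most like each stathmin and Dab1. Reln, Vldlr, Rest, Afp, Apoa1, Hnf4a, Amn, Slc1a3, Lum, Mog, S100b, Mbp and Zeb2 were added after their values were seen. So were the genes of largest day difference and genes named for absence or as germ cell markers. One list gene is not reported here. Alternatives were normexp (offset 50) with quantile normalization, quantile normalization alone, no filter or a strict filter (all 6 arrays), the mean of probes, the authors' table, a trend and robust prior, the vector as a block, each probe on its own, and each array left out.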

Additional observations from a re-analysis of the deposited data

Results flagged for a closer look

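The knockdown difference of Sox1 had opposite signs at day 12 and day 9: the 2 hairpins stood at -0.01 and -0.25 relative to the control at day 12, and at 1.27 and 1.12 at day 9. The change between the days was -1.33 on the log2 scale (SE 0.34, limma adjusted p = 0.9997), so it did not pass over all genes. It rests on 1 control array a day and on a dim probe.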

How the results depend on the processing

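The precision is set by 1 control array a day, and dim probes such as those of Sox1 and Stmn4 depend on the background correction. The knockdown differences of Stmn2, Stmn3 and Dab1 were also smaller with normexp. Counts of genes called over all genes moved with the settings. Knockdown against control gave 0 genes, 1 with the mean of probes, 8 with the strict filter, 2 with a trend and robust prior, 2 with each probe on its own, 20 with the replicate block of vectors, and 0 to 1 with 1 array left out (1 without either control). Day 12 against day 9 gave 30, 0 with normexp, 0 without a filter, 13 with each probe on its own, 321 with the replicate block, and 0 to 15 with 1 array left out. The hairpins gave 2, 0 with normexp, 1 with quantile normalization, 0 without a filter, 42 with the strict filter, 20 on the authors' table, 61 with a trend and robust prior, 1 with each probe on its own, and 0 to 769 with 1 array left out (769 without either control). The change between days gave 0, 1 on the authors' table, 2 with a trend and robust prior, and 52 with the replicate block, which leaves 1 residual degree of freedom. The block called none of the 9 genes for the days or the change between them, and the fit for the hairpins already holds the vector. With 1 array left out, the hairpin fit has 1 residual degree of freedom, and without a control only the hairpin arrays give its error. The cause of the other shifts was not tested.

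Of 135 knockdown values of the 9 genes under alternatives, 127 stayed within the spread, 7 moved and 1 reversed, that of Sox1, which ran from -0.13 to 1.19 with 1 array left out. Those that moved were Stmn2, Stmn3, Stmn4, Dab1 and Msx1 with normexp, Dab1 with the mean of probes, and Sox1 without the day 12 control. The genes higher in all 4 pairs numbered 5 with normexp and 4 otherwise. In the other contrasts 347 of 378 values kept direction and side of the threshold, 2 became stronger and 29 reversed, all 29 without a call. For day 12 against day 9, Dab1 gave -0.13 with the mean of probes, and Sox1 -0.046 with normexp, -0.038 with quantile normalization and -0.039 on the authors' table. For the change between days, Dab1 gave 0.00115 with normexp and 0.020 with quantile normalization. With 1 array left out, the day difference ran from -0.22 to 0.085 for Stmn1, -0.13 to 0.022 for Stmn3, -0.40 to 0.24 for Sox1 and -0.094 to 0.42 for Pax6. The hairpin difference ran from -0.073 to 0.20 for Stmn2, -0.17 to 0.56 for Sox1 and -0.0094 to 0.48 for Msx1. The change between days ran from -0.38 to 0.16 for Stmn1, -0.026 to 0.11 for Stmn4, -0.10 to 0.059 for Dab1, -0.76 to 0.27 for Gbx2, -0.46 to 0.024 for Msx1 and -0.20 to 0.69 for Pax6. For knockdown against control, all 313 alternatives for the named list genes kept direction and side of the threshold, while sizes moved: with normexp Sox9 gave -0.56, Foxd3 0.41, Neurog3 -0.23, Gbx1 0.20 and Uhmk1 -0.25. With 1 array left out, Sox21 ran from 0.40 to 1.06, Nck2 from -0.49 to -0.16, Sin3a from -0.42 to -0.19 and Phf21a from 0.17 to 0.37. With 1 array left out, the medians of the stathmin partner, neuronal cytoskeleton, reelin and glial lists took either sign, and that of the fibroblast markers ran from 0.09 to 0.98.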

Other observations

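Mog, which encodes a protein of the myelin sheath, had the largest difference among the glial markers and was picked out after its value was seen. Of the 8 glial markers measured it alone was higher in all 4 pairs, while S100b (-0.29, SE 0.14) and Mbp (-0.33, SE 0.18) were lower in all 4. The log2 signal of Mog at day 12 was -3.80 with hairpin 2 and -3.30 with hairpin 1, against -5.02 in the control. Its day 9 values were -3.83 and -3.12, against -4.86 in the control. The log2 difference was 1.43 (SE 0.25, limma adjusted p = 0.208), and all 4 knockdown arrays lay above both controls. Zeb2, a zinc finger repressor of neural crest and mesenchyme, was likewise picked out after its value was seen. It had 0.57 (SE 0.13, limma adjusted p = 0.303) and was higher in all 4 pairs, as 16.2% of all genes were.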
